A study of Homo sapiens with 72 samples.

Results

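The mRNA left in the cytoplasm of A375, a melanoma cell line, was compared 3 h after transcription had been blocked, with translation either left running or blocked as well, in cells that had spent the preceding 18 h without glutamine. The comparison took 6 of the 72 QuantSeq libraries of the series, chosen by their titles. In the T arm (n = 3), glutamine-free cells (mQ) had received 25 µM triptolide, which stops transcription. In the TCHX arm (n = 3), they had received the same triptolide together with 100 µg/ml cycloheximide, which stops translation. No library without triptolide was compared, so each value is what was left of an mRNA that was no longer being made. Libraries harvested at once (0 h, n = 3 per arm) gave the starting level, and cells in control medium with glutamine (pQ), treated in the same ways, were used to see where glutamine-free cells differed. The question was which mRNAs are kept in glutamine-starved cells when ribosomes are stopped.

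Cycloheximide freezes ribosomes on the coding sequence, and mRNAs whose decay is coupled to translation are then spared. Transcripts of immediate early genes and of short-lived regulators are known for rapid decay, often through AU-rich elements in the 3′ untranslated region that recruit deadenylation factors. Nonsense-mediated decay also needs translating ribosomes. Cycloheximide stops the supply of short-lived proteins too, including those that destabilise mRNA, so a spared mRNA need not have been decayed by the ribosome itself. These bulk libraries measure an average over all cells, in which fewer cells and less RNA per cell cannot be told apart.

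The 6 libraries held 6565272 to 15009623 counts and counts for 15895 to 17387 gene names. Replicates of one arm at 3 h correlated across 8547 genes with r between 0.980 and 0.990, a description only, since genes are no independent replicates. At 0 h, r in T was 0.973 for replicates 1 and 2, 0.986 for 1 and 3 and 0.960 for 2 and 3. In TCHX at 0 h it was 0.986 to 0.988. All 0 h libraries, also replicate 2 of T, entered the main fit and the starting level. At 5 h replicate 3 correlated with the others at 0.879 to 0.918, and 5 h was left out of the main comparison. No source says that the replicates were separate cultures, so the p-values measure the spread between these libraries, which may be technical. The melanoma lineage genes SOX10, MITF, S100B and CSPG4 were present in each library, and the 13 markers of that list summed to 993 to 1136 CPM, which scales counts to a fixed library total, in T and 1097 to 1348 CPM in TCHX. MLANA, TYR and PRAME were at or near 0. The 13 markers of keratinocytes, blood, endothelium, epithelium and fibroblasts summed to 0.762 to 2.72 CPM in T and 0.999 to 2.41 CPM in TCHX, and 6 of them, KRT5, KRT14, KRT1, CD3E, PECAM1 and COL3A1, had no count.

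The largest changes were in mRNAs of which little was left after 3 h of triptolide alone and much more when cycloheximide had been added. Of 13062 tested genes, 2410 (18.5%) were higher in TCHX than in T and 28 (0.214%) were lower (edgeR adjusted p under 0.05). A rise of at least 2-fold was fitted for 1037 genes (7.94%), of at least 4-fold for 323 and of at least 8-fold for 117. Calls in either direction made up 18.7%, and 2405 of the higher genes were higher in TCHX within each of the 3 replicates. For 2295 of the higher genes, every TCHX library lay above every T library, which held for 3674 (28.1%) of all tested genes. Of the higher genes, 13 had no count in any T library, so that their fitted fold is no measure of size. Against a floor of 3 counts per library, PGBD2, the most abundant of them in TCHX and named for that after its values were seen, was at least 6.22-fold higher. Without replicate 1, which leaves 2 pairs, 1168 genes were higher and 4 lower, so the 18.5% does not apply to member counts from that fit. All values were scaled to 81 stable genes, on which the median gene was 0.16 higher (log2). TMM scaling, which sets the median gene to about 0, moved this balance to 1762 higher and 605 lower genes, so that 74.4% of the calls were rises.

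The largest rises were found in genes of signalling and stress. CHAC1 (chr15:40952962-40956512, plus strand, GRCh38), a glutathione-degrading enzyme induced by amino acid stress, had 5.63, 23.5 and 21.1 normalised counts in T against 747, 717 and 1059.8 in TCHX. Its log2 change was 5.71 (SE 0.20, edgeR adjusted p = 1.13e-10). DUSP6 (chr12:89347235-89352501, minus strand), the phosphatase that switches off ERK, had 49.7, 57.4 and 85.1 in T and 2949, 2777 and 4274 in TCHX. The highest T library of DUSP6 was far below the lowest TCHX library, and the log2 change was 5.71 (SE 0.17, edgeR adjusted p = 7.94e-12). ADM, the precursor of the vasodilator peptide adrenomedullin, went from 1.88, 5.22 and 14.04 to 252, 253 and 259.7 normalised counts, a log2 change of 5.12. HES1, the Notch-induced repressor, had 21.6, 30 and 47.4 in T and 622, 631 and 608 in TCHX (log2 change 4.26, SE 0.31, edgeR adjusted p = 1.50e-07).

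The other leading genes described here rose by 4.01 to 4.64 on the log2 scale. They were JUN and CSRNP1, both nuclear factors, RGS3, a regulator of G protein signalling, BCDIN3D, an RNA methyltransferase, IER2, ITPRIP, C15orf39, BAMBI, a decoy receptor of TGF-β signalling, MAP3K14, the kinase of non-canonical NF-κB signalling, and RIPK4, another kinase. In T, RGS3 was at 0 in replicates 1 and 2 and at 7.898 in replicate 3, while TCHX held 56.6, 64.2 and 61.8. BAMBI had 15.9, 45.7 and 44.8 in T and 578, 574 and 589 in TCHX, and MAP3K14 had 2.81, 7.83 and 9.65 in T against 102, 119 and 123 in TCHX. None of these 14 genes overlapped between the arms, which held for 28.1% of all tested genes. Their choice as the largest rises in 1 direction made this likely, so it is a description only. In the plot of the leading genes, the TCHX points of each gene stand together above the T points.

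**Figure D1:**
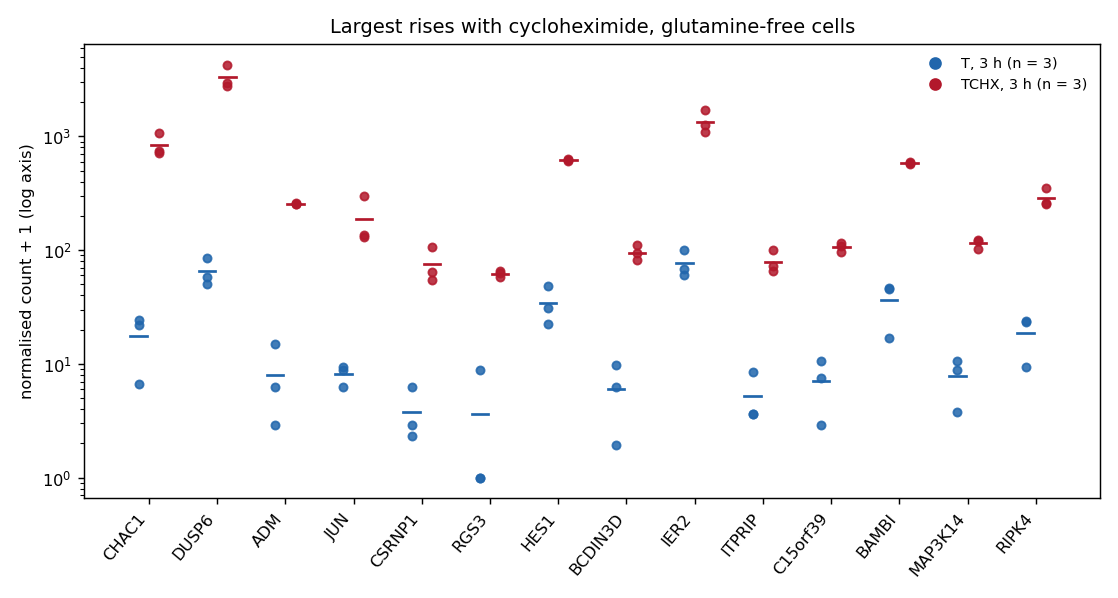
Normalised counts plus 1 (log axis) of 14 genes with the largest rises among named genes with more than 3 reads in the T arm, in each of the 3 T libraries (blue) and 3 TCHX libraries (red) of glutamine-free cells at 3 h, with the mean as a short line. The genes were chosen for their rises, and in none of the 14 does a TCHX library reach down to a T library. DUSP6 is highest, with 2777 to 4274 normalised counts in TCHX.

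Immediate early genes encode the AP-1, EGR and related factors of the first response to growth signals. They were higher in 20 of 23 tested members, against 18.5% of all genes, and lower in none. Their median log2 change was 1.97 against 0.16 for all genes. JUN (chr1:58776845-58784048, minus strand) had 8.44, 5.22 and 7.898 normalised counts in T and 134, 129 and 295 in TCHX, with replicate 3 highest (log2 change 4.64, SE 0.27, edgeR adjusted p = 1.25e-08). IER2, a nuclear regulator, rose from 60.02, 67.8 and 100.04 to 1087, 1251 and 1692 (log2 change 4.14, SE 0.11, edgeR adjusted p = 3.05e-12). IER5 rose from 20.6, 16.96 and 18.4 to 186, 162 and 201, a log2 change of 3.28. FOS, the AP-1 partner of JUN, was scarce, with 1.88, 9.13 and 14.9 in T and 24.4, 24.1 and 49.03 in TCHX (log2 change 1.97, SE 0.42, edgeR adjusted p = 0.00321), and it lost the call with 0 h subtracted (1.39, edgeR adjusted p = 0.123). EGR1, a zinc finger factor, was at 83.5, 119 and 116 against 237, 236 and 524, a log2 change of 1.59.

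Feedback inhibitors and other targets of ERK signalling rose in 14 of 21 tested members, against 18.5% of all genes, and fell in none. Their median log2 change was 1.43, or 0.97 when DUSP1 and DUSP2, which had no count in T, were placed at the bound that the floor of 3 counts gives. These genes are known transcriptional outputs of ERK, the kinase whose pathway drives most melanomas. Besides DUSP6, SPRY2, an inhibitor of receptor signalling, rose from 11.3, 20.9 and 27.2 to 191, 276 and 411 normalised counts (log2 change 3.87, SE 0.21, edgeR adjusted p = 8.31e-09). PHLDA1, another ERK-induced gene, was abundant and rose from 460.5, 699 and 645 to 3705, 4712 and 4553, a log2 change of 2.86. The ETV factors and CCND1, also targets of the pathway, were not called, with log2 changes between -0.18 and 0.13. Without replicate 1, 9 of the 21 genes were higher. With TMM 1 of the 21 was lower, as was 1 of 19 tested with the replicate block and 3 h libraries only.

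Short-lived transcription factors and survival genes were higher in 31 of 40 tested members, against 18.5% of all genes, and none was lower. Their median log2 change was 1.70 (1.52 with KLF2, at 0 counts in T, at its bound). MCL1 (chr1:150560895-150579738, minus strand), an anti-apoptotic protein with a very short half-life, had 238, 245 and 250.1 normalised counts in T and 1445, 1505 and 1791 in TCHX. The libraries of each arm lay close together, and the log2 change was 2.69 (SE 0.15, edgeR adjusted p = 1.21e-08). CEBPB, a stress-responsive factor, went from 137, 168 and 209.7 to 1171, 1404 and 1449 (log2 change 2.98, SE 0.15, edgeR adjusted p = 3.77e-09). IRF2BP2, a transcriptional corepressor, went from 125, 142 and 148 to 736, 803 and 773 (log2 change 2.48, SE 0.10, edgeR adjusted p = 5.26e-10). MYC, the growth regulator, was scarce in both arms, with 1.88, 1.305 and 2.63 in T and 22.8, 29.4 and 13.4 in TCHX. Its log2 change was 3.36 (SE 0.64, edgeR adjusted p = 0.00138), and it lost the call without replicate 1 (3.25, edgeR adjusted p = 0.0531) and with the 0 h difference between arms subtracted (2.30, edgeR adjusted p = 0.0769).

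**Figure D2:**
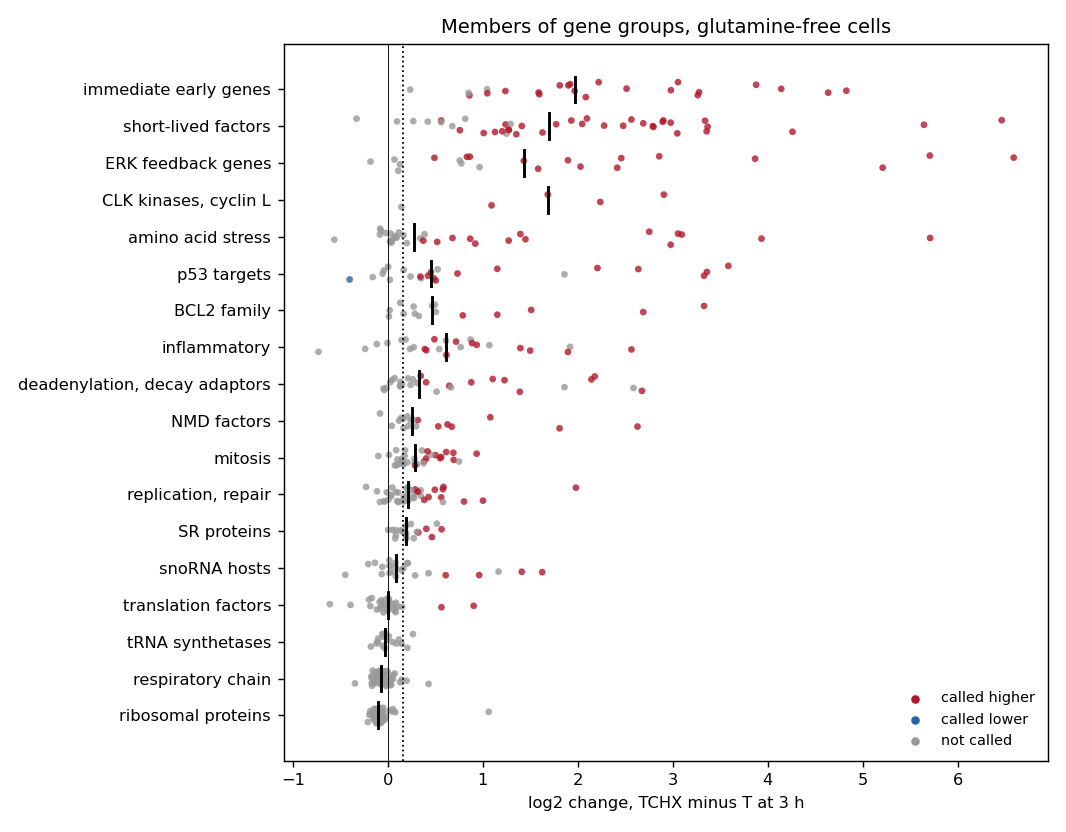
Log2 change (TCHX minus T at 3 h, glutamine-free cells) of each tested member of 18 gene groups, in red where called higher, blue where called lower and grey where not called. Black bars mark group medians and the dotted line marks the median of all tested genes (0.16). The immediate early genes sit furthest to the right by median (1.97), and the ribosomal protein genes are clustered slightly left of 0.

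The response to amino acid shortage was divided. Of 32 tested members, 14 were higher, against 18.5% of all genes, none was lower, and the median was 0.27. DDIT4, an inhibitor of mTORC1, had 75.97, 79.6 and 64.1 in T and 1074, 1219 and 1045 in TCHX (log2 change 3.93, SE 0.17, edgeR adjusted p = 8.11e-10), and CHAC1 and CEBPB are described above. ATF4, the transcription factor that drives this response, was abundant and barely past the threshold. It had 4256, 5121 and 9999.9 normalised counts in T and 8046, 9093 and 9569 in TCHX, so that the arms overlapped (log2 change 0.52, SE 0.17, edgeR adjusted p = 0.0491). ATF4 was not called without replicate 1 or 2, with TMM, without the replicate block or after subtraction of 0 h (log2 changes of 0.33, 0.38, 0.35, 0.46 and 0.73). The cytosolic tRNA synthetases, many of which are ATF4 targets, were called in 0 of 18 cases in the main edgeR fit or with the DESeq2 test. Their log2 changes ran from -0.18 to 0.26, although 3 had an unadjusted p under 0.05 and 4 were lower with TMM. With the replicate block and 3 h libraries only, AARS1 (0.20) and CARS1 (0.26) were higher and KARS1 (-0.18) lower. Without replicate 3, CARS1 was higher (0.41). EPRS1, which charges glutamate and proline tRNAs, had 3244, 3049.9 and 3168 in T and 3081, 3244 and 3205 in TCHX (log2 change 0.01, SE 0.08, edgeR adjusted p = 0.965). CTU2, which thiolates tRNA, TBL2 and UPP1 were not called either, with log2 changes of 0.01, 0.34 and -0.14.

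Growth arrest and cell death genes rose in part. Among p53 targets, 12 of 23 were higher (7 without replicate 1), against 18.5% of all genes, and ZMAT3 was lower, with a log2 change of -0.40. PLK2, a stress-induced kinase, went from 7.503, 16.96 and 9.65 to 135, 101 and 157 normalised counts (log2 change 3.58, SE 0.29, edgeR adjusted p = 3.80e-07). BBC3, which encodes the pro-apoptotic protein PUMA, went from 29.1, 37.8 and 43 to 321, 318 and 464 (log2 change 3.33, SE 0.15, edgeR adjusted p = 8.11e-10), and AEN, an apoptosis-enhancing nuclease, from 75.03, 90.01 and 189.6 to 483, 520.2 and 607 (log2 change 2.21). Of 15 BCL2 family genes, 5 rose (4 without replicate 1), against 18.5% of all genes. Among these were BBC3 and PMAIP1, which encodes the pro-apoptotic protein NOXA, and MCL1, which restrains death. GADD45B and GADD45A, growth arrest genes, rose from 9.38, 6.52 and 11.4 to 116, 148 and 135 and from 119, 138 and 306.3 to 771, 915 and 1118, with log2 changes of 3.82 and 2.38. GADD45GIP1, a mitochondrial ribosome protein that binds GADD45 proteins, was at -0.05 and was not called.

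Genes of the mRNA decay machinery are set here against the 18.5% of all genes that were higher in the main fit. That share does not apply to the fits with fewer calls in all. In these, 1271 genes were called with 0 h subtracted, 1168 without replicate 1 and 1876 without replicate 2. Deadenylation and decay adaptors were higher in 10 of 28 cases, with a median of 0.33, or in 5 with 0 h subtracted. ZFP36L1, which binds AU-rich elements, had 234, 513 and 399 in T and 1919, 2324 and 2979 in TCHX (log2 change 2.67, SE 0.18, edgeR adjusted p = 6.67e-08), and TOB2 and BTG1, which recruit the CCR4-NOT deadenylase, rose by 2.14 and 1.39. Of 18 nonsense-mediated decay factors, 7 were higher, and 4 without replicate 1 or 2 or with 0 h subtracted. SMG8 (chr17:59209400-59215239, plus strand), which restrains the SMG1 kinase, rose from 45.96, 46.96 and 30.7 to 237, 290.00 and 233 (log2 change 2.63, SE 0.21, edgeR adjusted p = 2.65e-07). PNRC2, which links this pathway to decapping, rose by 1.81, and UPF1, its helicase, by 0.63. PNRC2 lost the call with 0 h subtracted (1.104). PELO, which rescues stalled ribosomes, rose from 25.3, 16.96 and 13.2 to 112, 139 and 133 (log2 change 2.77, SE 0.31, edgeR adjusted p = 1.09e-05), and with DCP1A (0.85) and NEMF (0.28) made 3 of 19 decapping and stalling factors, a share no higher than that of all genes. NEMF was not called with TMM, without the replicate block, or without any one of the 3 replicates.

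Groups with known substrates of nonsense-mediated decay differed in their counts. Of 24 snoRNA host genes, 4 were higher, against 18.5% of all genes, and their median of 0.09 became -0.07 with TMM. SNHG7 had 257, 327 and 818 in T and 1064, 1555 and 1370.2 in TCHX (log2 change 1.62, SE 0.25, edgeR adjusted p = 0.000197), and SNHG15, SNHG12 and SNHG1 rose by 1.41, 0.96 and 0.61. The arms of SNHG1 and SNHG12 overlapped, SNHG15 lost the call with 0 h subtracted (0.95), and SNHG1 lost it with TMM (0.45), without the replicate block (0.59) and without replicate 1 (0.61). GAS5, the host gene most often used as a reporter of this pathway, had 1224, 1481 and 1976 in T and 1460.2, 1859 and 1803 in TCHX, overlapping values with a log2 change of 0.14 (SE 0.11, edgeR adjusted p = 0.454). The splicing kinases and cyclins of the CLK and cyclin L families, whose genes also make unproductive isoforms, rose in 4 of 5 cases, against 18.5% of all genes. CLK1 had 24.4, 6.52 and 21.9 in T and 110.1, 152 and 159 in TCHX (log2 change 2.91, SE 0.28, edgeR adjusted p = 2.77e-06), and CLK4 and CCNL1 rose by 2.24 and 1.68. Among 20 SR protein and related splicing genes, 4 rose (2 without replicate 1 or 2), none by 2-fold. This share was close to the 18.5% of all genes, and the median of 0.19 was close to their 0.16. TRA2B was at 0.46 (0.36 and not called with 0 h subtracted) and SRSF4 at 0.57. QuantSeq reads at the 3′ end do not tell such isoforms apart.

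Inflammatory genes with AU-rich elements rose in 11 of 25 cases (5 without replicate 1), against 18.5% of all genes, with a median of 0.61. NFKBIA, the inhibitor of NF-κB, had 20.6, 7.83 and 14.9 in T and 66.8, 91.9 and 106 in TCHX (log2 change 2.56, SE 0.26, edgeR adjusted p = 4.49e-06), VEGFA, the angiogenic factor, rose by 1.39 and BIRC2, a ubiquitin ligase, by 0.72. In mitosis, 11 of 32 genes rose, against 18.5% of all genes, none by 2-fold, and CKS2, CDCA8 and BUB1B led with 0.93, 0.69 and 0.69. CKS2 had a log2 difference of 0.59 at 0 h, which was not called, and CKS2 (0.34) and BUB1B (0.41) lost the call with 0 h subtracted. In replication and repair, 11 of 40 rose, against 18.5% of all genes, with PALB2 at 1.98 and the helicase BLM at 0.80. Both of these counts came to 4 without replicate 1, where 1168 genes were higher in all. Of 14 polyubiquitin and polyamine genes, 1 rose, a share below the 18.5% of all genes. It was AMD1, the decarboxylase of polyamine synthesis, which went from 546, 570.1 and 339.6 to 1204, 1159 and 1032 (log2 change 1.24). Of 9 tested melanoma markers, SOX10 (1.27) and MITF (0.81), both transcription factors, rose, a share close to the 18.5% of all genes. The median of the 9 was -0.07, and the pigment enzyme DCT was at -0.17 and was not called. VWF, the only tested marker of other cells, was not called (log2 change 0.26).

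Most housekeeping mRNAs were not called on the stable-gene scale. None of 74 ribosomal protein genes and none of 64 nuclear respiratory chain genes was called in either direction by edgeR or DESeq2, with 4 and 0 at an unadjusted p under 0.05 and medians of -0.10 and -0.07. With the replicate block and 3 h libraries only, 15 ribosomal protein genes were lower and 1 higher, and 6 respiratory chain genes were lower and 1 higher. RPS3 had 21757, 22791 and 26879 normalised counts in T and 19192, 20415 and 22759 in TCHX (log2 change -0.20, SE 0.09, edgeR adjusted p = 0.155), and was called lower in the paired 3 h fit (-0.19, edgeR adjusted p = 0.00142). These groups lay below the median of all genes, and on the TMM scale 50 of the 74 and 21 of the 64 were called lower, with medians of -0.26 and -0.23. Of 30 translation factors, 6 were lower with TMM. Those that rose, EIF4A2 (0.90), an RNA helicase of initiation, and EIF5 (0.56), made a share below the 18.5% of all genes. Both lost the call with 0 h subtracted (0.56 and 0.62), and EIF5, whose arms overlapped, also with TMM (0.40) and without replicate 1 (0.52) or 2 (0.35). None of the 26 names listed for mitochondrial protein-coding RNA was tested.

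How much of each mRNA was left was expressed relative to R0, the mean of both 0 h libraries of a replicate, on counts scaled to the stable genes. The median of 12385 genes with an R0 of at least 10 in both media was 60.5% in T and 67.1% in TCHX. Among the 316 such genes called higher by at least 4-fold, the median was 7.89% in T and 54.3% in TCHX. It was 24.3% and 62.6% for 710 genes called higher by 2- to 4-fold, and 43.8% and 66.7% for 1373 genes called higher by less. The T value of these classes follows from the way they were chosen and is given as a description. In TCHX, 129 of the 316 genes were under 50%, 175 between 50% and 100% and 12 above 100%, so most of them were below the starting level in TCHX too. DUSP6 stood at 0.844% ± 0.164 in T and at 43.8% ± 4.32 in TCHX (SD, n = 3). CHAC1 stood at 0.827% ± 0.438 and 43.3% ± 5.26, and MCL1 at 6.56% ± 1.33 and 41.8% ± 5.13 (SD, n = 3). GADD45B was kept almost whole, at 97.1% ± 16.2 against 6.59% ± 1.63 in T, as was MAP3K14, at 96.96% ± 2.94 against 5.58% ± 2.59 (SD, n = 3). SPRY2 and NFKBIA were kept least among the named genes higher by at least 4-fold other than MYC, at 21.8% ± 6.35 and 20.2% ± 5.56 in TCHX (SD, n = 3), although only 1.47% ± 0.478 and 3.23% ± 1.27 were left in T. EPRS1 stood at 69.8% ± 5.105 in T and 70.3% ± 3.76 in TCHX (SD, n = 3).

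**Figure D3:**
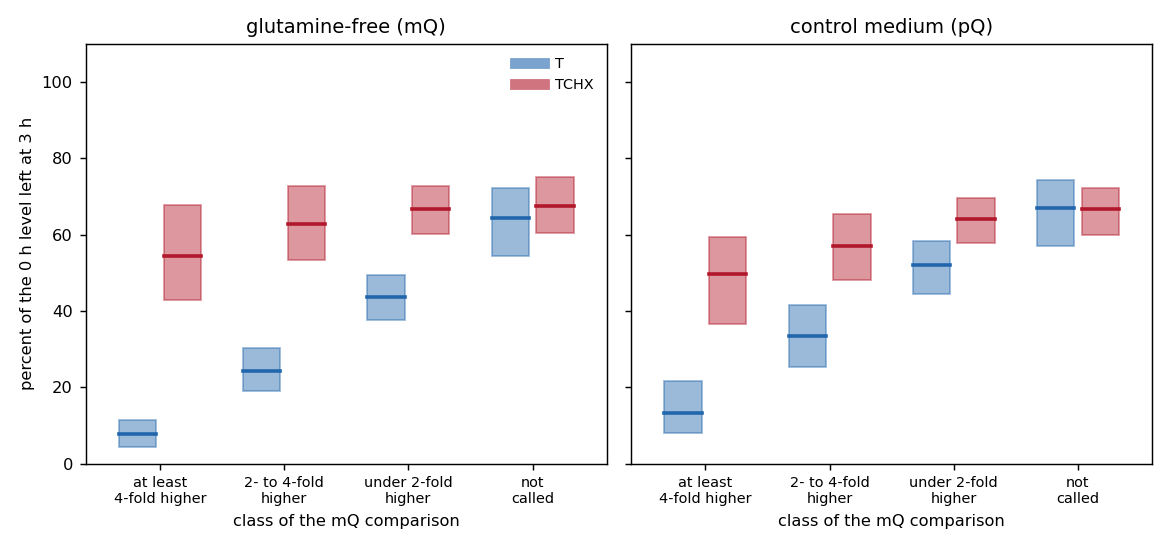
Percent of the 0 h level (R0) left after 3 h in T (blue) and TCHX (red), in glutamine-free cells (left) and control medium (right), for genes grouped by their call in glutamine-free cells. Bars span the quartiles over genes and lines mark medians. The plotted genes had an R0 of at least 10 in glutamine-free cells. The following medians are for genes called at least 4-fold higher that had such an R0 in both media. They are 7.89% and 54.3% in glutamine-free cells and 13.3% and 49.6% in control medium.

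The genes with the largest rises had few exons. This property was looked at after the calls were known, on the GENCODE canonical transcripts of GRCh38, to which 12093 of 13062 tested names were matched by symbol, 11119 of them with a coding sequence in frame. The median exon number was 3 for genes called at least 4-fold higher, 5 for those called 2- to 4-fold higher, 9 for those called higher by less and 10 for genes not called. Of 212 coding genes with 1 exon, 111 (52.4%) were called higher, against 2310 of all 11119 coding genes (20.8%). The share fell with each class of exon number, to 39.5% of 1172 genes with 2 to 3 exons, 23.2% of 2446 with 4 to 6 and 14.6% of 1566 with 21 or more. Of the 1-exon genes, the median was 31.8% of R0 left in T and 61.2% in TCHX. The 1-exon genes were also the least abundant, with a median R0 of 143 against 369 for genes with 21 or more exons, and the part of abundance in these shares was not tested. In control medium the shares were lower and fell from 26.2% for 1 exon to 6.05% for 21 or more. The 4 smallest p-values among 1-exon genes belonged to CEBPB, IER5, JUN and IRF2BPL, all regulators of transcription or its early response.

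**Figure D4:**
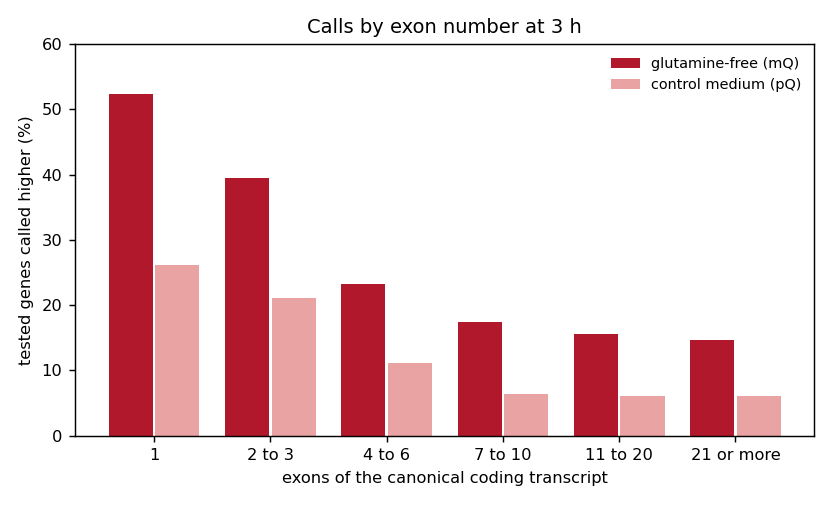
Percent of tested coding genes called higher in TCHX at 3 h, by the number of exons of the canonical transcript, in glutamine-free cells (dark bars) and control medium (light bars). The share falls from 52.4% for 1 exon to 14.6% for 21 or more exons in glutamine-free cells, and from 26.2% to 6.05% in control medium.

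Zinc finger genes were called often as well, again noticed after the calls were known. Of 363 tested genes named ZNF and a number, most of which encode DNA-binding repressors, 201 (55.4%) were higher and none was lower (edgeR), and 139 rose by at least 2-fold. Their median log2 change was 0.95, with 27.0% of R0 left in T and 53.9% in TCHX. In control medium the median of these genes was 0.63, against 0.05 for all genes, so the trait was shared by both media. ZNF281 and ZNF408 had the smallest p-values. ZNF281 had 42.2, 57.4 and 45.6 normalised counts in T and 320.03, 315 and 361 in TCHX (log2 change 2.80, SE 0.15, edgeR adjusted p = 7.58e-09). ZNF408 had 4.69, 10.4 and 13.2 in T and 117, 147 and 137 in TCHX (log2 change 3.81, SE 0.24, edgeR adjusted p = 3.39e-08). Members of this family share sequence, and reads between close relatives could have been split.

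Codon content differed between the classes of change. Codons ending in A or T made up a median of 35.9% of the coding sequence in genes called at least 4-fold higher, 42.4% in those called 2- to 4-fold higher, 47.0% in those called higher by less and 41.9% in genes not called. The GAA codon followed the same order, with medians of 2.36%, 2.94%, 3.31% and 2.81%, and so did AAA, with 1.81%, 2.52%, 2.79% and 2.33%. For these measures the 4-fold class lay below the uncalled genes and the 2- to 4-fold class above them. For GAT (1.48%, 1.83%, 2.35% and 2.17%) and AAT (0.996%, 1.47%, 1.75% and 1.54%) both classes lay below the uncalled genes. Median coding lengths were 1357.5, 1524, 1689 and 1377 bases in the same order. These differences were not tested.

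AU-rich elements were searched as the motif TATTTAT, which holds the pentamer ATTTA, in the last 300 bases of the 3′ untranslated region, the part nearest to where QuantSeq reads fall. It was present in 17.0% of 283 such windows of genes called at least 4-fold higher, 15.3% of 620 windows of genes called 2- to 4-fold higher and 12.1% of all 9660. Its reverse complement ATAAATA, searched on the same strand, was present in 13.4%, 10.5% and 13.4%. Of 1172 genes with the motif, 313 (26.7%) were higher, and of 8488 without it, 1831 (21.6%). Named genes of the same groups that rose without the motif in this window were IER2, IER5, EGR1, DUSP6, PHLDA1, GADD45B, BBC3, AEN and BIRC2. Other named genes held it, namely EIF4A2, PMAIP1, SOX10, UPF1 and C11orf71, of which C11orf71 fell. The sites of 6 named genes that rose are shown because their groups are known for AU-rich elements, and they stand for no link between motif and rise. They come from immediate early, feedback, arrest and NF-κB genes, with 10 bases on each side and the motif in capitals (RNA sense strand 5′ to 3′, GRCh38).
JUN (chr1:58780820-58780846, minus strand): tgcttatgaaTATTTATaacagcattc
FOS (chr14:75282061-75282087, plus strand): gtttttaattTATTTATtaagatggat
SPRY2 (chr13:80336123-80336149, minus strand): gtgtaaagaaTATTTATttgaagtttt
PLK2 (chr5:58454067-58454093, minus strand): ataaacttttTATTTATtacagcccaa
NFKBIA (chr14:35401700-35401726, minus strand): ccacattttaTATTTATtgtgcttcga
GADD45A (chr1:67688261-67688287, plus strand): catgaaaagtTATTTATgctataaatt

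As a background, both arms of glutamine-free cells were compared at 0 h, directly after the drugs, in the same fit. None of 13062 genes was higher and 1 was lower (0.00766%, edgeR), while 1809 had an unadjusted p under 0.05. The lower name, TRNA, a mitochondrial tRNA, had a log2 change of -7.48 (edgeR adjusted p = 0.0114), and its T libraries at 0 h held 5414, 17.2 and 7990 normalised counts. The absence of rises rested on replicate 3, and without it 1068 genes were higher and 44 lower at 0 h. The median log2 difference at 0 h of all genes was 0.08 in replicate 1, 0.15 in replicate 2 and -0.06 in replicate 3. With the 0 h difference subtracted gene by gene, 1271 genes were higher at 3 h and 9 lower, and 1229 of the 1271 were among the 2410. On that scale 17 of the 23 immediate early genes were higher, as were 24 of the 40 short-lived factors and 10 of the 21 ERK feedback and target genes.

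In control medium the same comparison gave fewer calls, 1074 higher (8.27%) and 70 lower (0.539%) of 12980 tested genes, or 8.81% in all. Its TCHX library of replicate 3 at 0 h held counts for 19940 gene names, against 15938 and 16338 in replicates 1 and 2. That library stayed in this fit, in the test between media and in the R0 of control medium. Its own part in the results of control medium was not tested. Of 2396 genes higher in glutamine-free cells and tested in both media, 964 were also higher in control medium, which was 40.2% of the former and 90.3% of the 1068 rises in control medium. A log2 change above 0 in control medium was found for 2286 of the 2396 (95.4%) against 58.0% of all genes, with a median of 0.47 against 0.88 in glutamine-free cells. The leading genes were spared in both media. DUSP6 rose by 4.61 (log2) in control medium and ADM by 4.84, and GADD45B and MAP3K14 by 4.48 and 4.59, above their 3.82 and 4.08 in glutamine-free cells, differences that did not pass the test (edgeR adjusted p = 0.751 and 0.866). CHAC1 rose by 2.22 in control medium, and the test of the difference gave 3.43 more without glutamine, with a wide error (SE 0.98, edgeR adjusted p = 0.147).

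The change differed between media, by a test of the difference itself, for 55 of 13680 genes (0.402%), all with a larger change in glutamine-free cells. None differed the other way (edgeR), and 1214 had an unadjusted p under 0.05 in either direction. The median difference over all genes was 0.13, and that of the 55 genes was 1.097 (0.52 to 2.29). All 55 were higher in glutamine-free cells and 42 were also higher in control medium, so most differed in size. IER2 had 50.4, 96.9 and 97.96 normalised counts in T and 494, 443 and 487 in TCHX in control medium, and rose there by 2.57 against 4.14 without glutamine, a difference of 1.58 (SE 0.21, edgeR adjusted p = 0.00134). SMG8 had 175, 238 and 155 in T and 386, 378 and 317 in TCHX of control medium, and its changes differed by 1.68 (SE 0.27, edgeR adjusted p = 0.00657). IRF2BP2 had 199, 179 and 165 against 439, 586 and 489, a difference of 1.01 (SE 0.15, edgeR adjusted p = 0.00235). MCL1 had 235, 402 and 216 against 877, 984 and 755, a difference of 1.04 (SE 0.23, edgeR adjusted p = 0.0447). The starting levels also differed. R0 (mean normalised count at 0 h) was 2714 without and 1103 with glutamine for IER2, 3858 and 2885 for MCL1, and 356 and 582 for SMG8. In normalised counts, the T libraries of both media overlapped in range for MCL1 and IER2, and their TCHX libraries lay higher in glutamine-free cells. In SMG8 the T libraries of control medium lay above those of glutamine-free cells. Relative to R0, IER2 stood at 2.79% in T without and 7.26% with glutamine, and at 49.7% and 43.9% in TCHX. MCL1 stood at 6.56% and 9.68% in T and at 41.8% and 30.4% in TCHX. SMG8 stood at 11.7% and 32.7% in T and at 71.5% and 63.2% in TCHX.

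SPRY2, C15orf39 and BTG1 were the other named genes whose changes differed, by 1.72, 1.91 and 0.59. Of the 54 coding genes among the 55, 32 (59.3%) had at most 3 exons, against 12.4% of all coding genes tested. Their median of 3 exons equals that of all genes called at least 4-fold higher. The number of genes whose change differed was 1 without replicate 1, 0 without replicate 2 and 121 without replicate 3. It was 33 with TMM, with 1 gene differing the other way, and 9 without the replicate block. In the plot of both media, these genes lie on the side of larger changes without glutamine, within the broader cloud of spared genes.

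**Figure D5:**
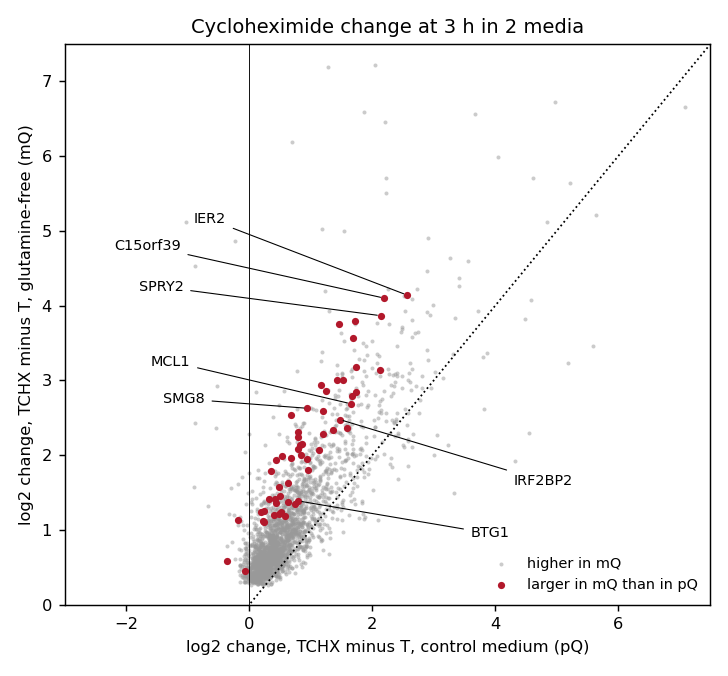
Log2 change (TCHX minus T at 3 h) in control medium (x axis) against glutamine-free cells (y axis). Grey points are genes called higher in glutamine-free cells and tested in both media, red points the 55 genes whose changes differ between media, and the dotted line marks equal change. The red points lie above the line, by 0.52 (log2) at least.

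The few falls were small and less secure. The largest were MARCHF2, a ubiquitin ligase, with 58.1, 97.8 and 77.2 normalised counts in T and 31.5, 42.8 and 45.7 in TCHX (log2 change -0.93, SE 0.22, edgeR adjusted p = 0.00545), SLC16A10, an amino acid transporter (-0.87), TBCD, a tubulin-folding cofactor (-0.87), C11orf71 (-0.80) and TRNM, the mitochondrial methionine tRNA (-0.76). TBCD had 38.5, 108 and 77.2 in T and 37.7, 37.5 and 40.1 in TCHX, and its reads may be shared with extra copies of the gene in the annotation. Left out in turn, single replicates ended the call of MARCHF2 (replicate 1 or 2), SLC16A10 and TBCD (replicate 2 or 3) and C11orf71 (any). With the 0 h difference subtracted, SLC16A10, TBCD, C11orf71 and TRNM lost the call, at -0.68, -0.80, -0.21 and -0.43.

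Of the 28 falls, 7 were RNAs transcribed inside mitochondria, a group noticed after the calls were known. Over the 23 tested mitochondrial tRNA and rRNA names, the log2 change was negative in 23, with a median of -0.38 against 0.16 for all genes. RNR2 and TRNH, among the 23, also belonged to the stable genes used for scaling. TRNG, the glycine tRNA, had 3861, 3947 and 4287 normalised counts in T and 2978, 3289.9 and 3218 in TCHX (log2 change -0.35, SE 0.09, edgeR adjusted p = 0.0154). RNR1, the small ribosomal RNA, had 41199, 44882 and 68369.8 in T and 33162, 39473 and 51792.5 in TCHX, so the arms overlapped although each replicate was lower in TCHX (log2 change -0.30). A median of -0.22 was already present at 0 h. In control medium the median was -0.65, and 12 of the 23 were lower there. Structured RNAs of this kind are caught by poly(A) priming only in part, and what that does to these values was not tested.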

How the data were processed

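Cytoplasmic RNA was sequenced from the 3′ end (QuantSeq). The authors trimmed reads with fastp 0.20.1, aligned them with HISAT2 2.2.1 to the human genome (GRCh38) and counted reads over exons with htseq-count (HTSeq 0.13.5), and the deposited table holds these raw counts for 44659 gene names. The strand setting of the counting is not given in the sources used here, so overlapping antisense genes cannot be told apart, and 5088 names of extra gene copies can share reads. Without molecular identifiers, counting intervals and floors cover counting error only.

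The authors added spike-in RNA, but the counts used here hold no spike-in names, so the balance of calls and the percentages left rest on stable genes instead. Size factors were medians of ratios over 81 stable genes of the medium experiment (2.51% of counts). These had a CPM above 0.2 at 0 h and at least 1.1 times that at 3 or 5 h. Both arms of every replicate in both media had to meet this, so the genes were picked from the same libraries. The edgeR 4.0.16 quasi-likelihood test (R 4.3.3, limma 3.58.1) was fitted to the 12 glutamine-free libraries at 0 and 3 h, with replicate number as a block, after filterByExpr, with Benjamini-Hochberg adjustment at 0.05. The control medium was fitted likewise, and the difference between media over 24 libraries. Replicate numbers paired the samples, since deviations of same-numbered libraries correlated at 0.394, 0.301 and 0.530 at 3 h and at 0.182, 0.150 and 0.312 at 0 h. Transcript features and sequences came from GENCODE annotation and the GRCh38 reference.

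The members and gene lists were chosen with earlier results of these data known. Named were the 15 largest rises and 5 largest falls with at least 50 normalised counts and 1 direction in 3 pairs, up to 3 genes of smallest p per list, and preset genes. Others were chosen after their values were seen. Alternatives were TMM, other stable genes, DESeq2 1.42.0, no filter, no block, 3 h libraries only, added 5 h libraries, a 1.5-fold threshold, subtraction of 0 h, and each replicate left out. The test was checked on simulated data. A gene among the largest rises is not reported here.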

Additional observations from a re-analysis of the deposited data

Results flagged for a closer look

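The change with cycloheximide at 3 h was larger without glutamine than in control medium for 55 genes by the interaction test of edgeR, described above with their dependence on replicates 1 and 2. Among the named genes, the difference (log2, glutamine-free minus control medium) was 1.58 for IER2, 1.68 for SMG8, 1.72 for SPRY2, 1.91 for C15orf39, 1.01 for IRF2BP2, 1.04 for MCL1 and 0.59 for BTG1.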

How the results depend on the processing

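The 2410 rises in glutamine-free cells became 138 with the 5 h libraries in the fit, 841 against a 1.5-fold threshold, 1271 with 0 h subtracted and 1168 to 2070 with a replicate left out. The 28 falls became 605 with TMM, 953 with DESeq2 scaling over all genes (62.9% of calls higher), 11 with stable genes of both times (3 genes), 44 without a filter, 12 without the replicate block, 13 and 178 with 3 h libraries only (no block, block), 0 with 5 h, 1 against 1.5-fold, 9 with 0 h subtracted and 4 to 25 with a replicate left out. At 0 h, the 0 rises became 1 with TMM and 0 to 1068 with a replicate left out, and the 1 fall 0 to 44. In control medium, the 1074 rises became 704 without the replicate block and 486 to 978 with a replicate left out, and the 70 falls 348 with TMM, 12 without the block, 209 with 3 h libraries only and 8 to 152 with a replicate left out. The 55 larger changes without glutamine became 33 with TMM, 9 without the replicate block, 202 with 3 h libraries only and 0 to 121 with a replicate left out, and the 0 smaller ones 1, 0, 5 and 0 to 4. Where neither the scaling nor the number of libraries or genes accounts for such a shift, the cause was not tested.

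None of these results or of the 90 named genes changed direction while called. Of the 90, 90 kept their side of the threshold with the DESeq2 test, 84 without the replicate block, 76 with TMM, 75 with 0 h subtracted and 82, 82 and 85 without replicates 1, 2 and 3. Genes with few reads in T, such as MYC, were limited by depth.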
